A study of Mus musculus with 9 samples.

Results

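The PYHIN genes encode interferon-induced proteins that typically pair an N-terminal pyrin domain with a C-terminal HIN domain, although not every member need carry both. The domains of single members were not checked here. Across all libraries of a macrophage RNA-seq series 8 PYHIN genes were followed. They were taken by symbol from a table of 18049 genes (Ifi203, Ifi204, Ifi205, Mnda, Pydc3, Pydc4, Pyhin1 and Aim2). The study treated bone marrow-derived macrophages of C57BL/6 mice aged 8 weeks, grown in RPMI medium, and collected RNA after 6 h. There were 3 groups of 3 libraries: cells with medium only (control), cells with 15d-PGJ2 at 1 µM, and cells with a compound labelled 15d-PGJ2-PC at 1 µM. 15d-PGJ2 is an electrophilic cyclopentenone prostaglandin, and the labels do not say what PC stands for, so the structural difference between both compounds is not named here. Macrophages of this kind are grown from marrow progenitors and can carry a minority of other marrow cells. No label ties the replicates to separate animals or cultures, so every p-value measures the spread between libraries, which may be technical.

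In PYHIN proteins the HIN domain, where present, binds DNA and the pyrin domain binds the pyrin domains of partner proteins. AIM2 detects double-stranded DNA in the cytosol and recruits the adaptor ASC (gene Pycard) and caspase-1 into an inflammasome, while the p204 protein of Ifi204 is linked to the DNA-sensing route through STING. The family lies in a single cluster in the mouse genome, and type I interferon raises many of its members in macrophages through transcription factors that include STAT2 and IRF9.

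All 8 members lie on chromosome 1 between positions 173349547 and 174031755 of the mouse reference GRCm38.p6 (the assembly that mm10 names), a span of 682 kb. The table uses older symbols, and RefSeq now calls Mnda Ifi211, Pydc3 Ifi208, Pydc4 Ifi213 and Pyhin1 Ifi209. RefSeq promoters of this build (250 bases before and 50 after each transcript start) were available for 7 of the 8 members. They are shown because many interferon-induced genes carry the core of an interferon-stimulated response element, in which GAAA is followed after any 2 bases by a second GAAA. This core was searched on both strands. The core was present in a promoter of 5 of the 7 members, namely Pydc3, Pydc4, Mnda, Ifi203 and Ifi205. Over the genome it was in a promoter of 3.99% of 27025 mouse genes (3.44% of 32851 promoters). It was also present in 3 PYHIN genes of the table outside the 8, Mndal, AI607873 (now Ifi207) and BC094916 (now Ifi214). The 40 bases around 1 match per gene are lined up below on the 10-base core, 5′ to 3′ along the gene's own strand, with the core in capitals; in the last line, for Pyhin1, the capitals mark the nearest sequence to the core at the same place and not a match.
Pydc3: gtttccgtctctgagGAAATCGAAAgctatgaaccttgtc
Pydc4: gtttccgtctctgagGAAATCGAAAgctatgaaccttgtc
Mnda: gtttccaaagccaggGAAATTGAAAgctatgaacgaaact
Ifi203: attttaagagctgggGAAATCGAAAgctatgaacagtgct
Ifi205: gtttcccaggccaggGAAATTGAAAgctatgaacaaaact
Mndal: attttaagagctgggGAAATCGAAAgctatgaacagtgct
AI607873: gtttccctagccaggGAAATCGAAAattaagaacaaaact
BC094916: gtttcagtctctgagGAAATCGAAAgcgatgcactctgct
Pyhin1: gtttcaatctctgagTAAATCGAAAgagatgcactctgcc

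The core began 58 bases before the transcript start in Pydc3, 73 in Pydc4, 37 in Mnda, 35 in Ifi203 and 134 in Ifi205. Pydc3 and Pydc4 were identical over all 40 bases, and so were Ifi203 and its neighbour Mndal, while Mnda and Ifi205 shared 37 of 40. Ifi203 has 2 listed promoters, and the match is in the second. A further match on the opposite strand, not shown, lies past the start in Ifi205 and 54 bases before the start of a second promoter in Mndal. Pyhin1 shared 36 of 40 bases with BC094916 and differed from the core there by a single substitution, G1T, counted from 1 at the first base of the core. Equally near sequences lie 177 (G7C), 93 (A3G) and 43 (A8G) bases before the start of Pyhin1, with A3G and A8G on the opposite strand. In Aim2 the nearest sequence also differed at 1 position, A3C, on the opposite strand 51 bases before the start. The only promoter listed for Aim2 lies within its annotated gene span (chr1:173349547-173466040). Sequence before the first base of that span was not searched. Sequences within 1 mismatch of the core were in 35.4% of all promoters. A longer form of the motif, with CT after the second GAAA, was in no member and in 0.303% of genes (0.271% of promoters). The gamma-activated site TTCNNNGAA was in no member and in 9.55% of genes (8.30% of promoters). A match describes letters and not factor binding, which was not measured. The 250 bases before the start are printed for 3 members, Pydc3 (chr1:173673415-173673664, plus strand), which has the core, and Pyhin1 (chr1:173630609-173630858, plus strand) and Aim2 (chr1:173420354-173420603, plus strand), which do not; capitals again mark the core.
Pydc3: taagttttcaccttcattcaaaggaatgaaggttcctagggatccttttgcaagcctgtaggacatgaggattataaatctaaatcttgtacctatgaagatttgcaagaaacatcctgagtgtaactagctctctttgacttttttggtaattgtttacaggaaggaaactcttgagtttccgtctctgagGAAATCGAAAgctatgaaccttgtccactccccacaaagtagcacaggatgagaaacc
Pyhin1: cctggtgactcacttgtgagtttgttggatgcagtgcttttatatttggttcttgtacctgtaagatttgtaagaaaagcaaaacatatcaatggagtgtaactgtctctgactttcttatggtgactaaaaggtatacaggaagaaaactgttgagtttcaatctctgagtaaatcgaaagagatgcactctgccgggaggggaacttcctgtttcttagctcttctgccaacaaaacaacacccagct
Aim2: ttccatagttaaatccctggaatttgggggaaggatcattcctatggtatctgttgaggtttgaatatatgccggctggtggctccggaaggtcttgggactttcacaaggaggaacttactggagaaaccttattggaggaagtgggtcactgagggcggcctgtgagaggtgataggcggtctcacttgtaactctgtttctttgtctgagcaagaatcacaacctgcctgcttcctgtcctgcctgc

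Expression was deposited as FPKM, fragment counts scaled to transcript length and to sequencing depth, so that levels of different genes are given per length. Libraries summed to between 469548 and 492998 FPKM, and the steps between low values correspond to about 5.27 to 5.41 M reads per library, an estimate only. The 8 macrophage markers were high in every library (their sum was 6476 to 6678 FPKM in controls, 4954 to 5313 after 15d-PGJ2 and 5794 to 5967 after 15d-PGJ2-PC). Of these, 8 fell with 15d-PGJ2 and 6 with 15d-PGJ2-PC, where 25.0% and 14.1% of all genes tested fell. Markers of other cells differed between groups. Summed stromal markers were 30.6 to 33.7 FPKM in controls, 6.59 to 7.98 after 15d-PGJ2 and 6.13 to 7.08 after 15d-PGJ2-PC, erythroid markers were 19.6 to 31.8 in controls and at most 0.91 in treated libraries, and skin markers were 17.1 to 20.5 in controls and at most 1.37 in treated libraries. Neutrophil markers summed to 32.7 to 35.1, 15.9 to 19.8 and 24.6 to 29.6 FPKM in controls, 15d-PGJ2 and 15d-PGJ2-PC, although Mpo of that list rose from 0.093 ± 0.040 to 1.69 ± 0.499 and 1.99 ± 0.358 (limma adjusted p = 7.74e-05 and 7.91e-05). Mpo reached 1 FPKM only in treated libraries and was tested only because of them, so its values lie near the floor. The B cell receptor gene Cd79b read 43.1 ± 3.91, 15.7 ± 1.87 and 26.7 ± 2.57, while Cd79a and Ms4a1 stood at or below 0.83. Summed T, NK and dendritic cell markers were at most 0.99, 0.09 and 2.23 FPKM. Between both compounds limma called 0 of 11 tested stromal, erythroid and skin markers (0 at an unadjusted p under 0.05). Most of these could show no difference there. Krt5, Krt14 and Lor were at 0 in all treated libraries, and Col3a1, Dcn, Hba-a1, Hbb-bs and Hbb-bt at most at 0.67 FPKM. They were tested only because of their control levels. Only Col1a1 and Col1a2 were above 1 FPKM in every treated library. Between both compounds 8 of 8 macrophage markers, 2 of 4 tested neutrophil markers and Cd79b were higher with 15d-PGJ2-PC, as were 7 PYHIN members. Of all genes tested 12.3% were higher and 8.30% lower in that comparison. The part of these markers in the PYHIN differences was not tested, and in bulk RNA fewer cells of a type and less RNA per cell cannot be told apart. The source of the stromal, erythroid and skin RNA in the controls was not tested either. Whatever set the control libraries apart in these markers cannot be told apart from treatment in the comparisons with control.

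The family fell with both compounds, and further with 15d-PGJ2. The summed level of the 8 members was 401 ± 54.2 FPKM in controls (SD, n = 3), 119 ± 3.73 after 15d-PGJ2 and 217 ± 7.57 with 15d-PGJ2-PC, which is 29.6% and 54.1% of the control sum. With 15d-PGJ2 all 8 members fell (limma on log2(FPKM + 1), adjusted p under 0.05 over all 11309 genes tested), where 25.0% of genes tested fell. With 15d-PGJ2-PC 7 of 8 fell, where 14.1% of genes tested fell, and Aim2 did not pass. Between the compounds 7 of 8 members were higher with 15d-PGJ2-PC, where 12.3% of genes tested were, and again Aim2 did not pass. The median log2 fold change of the members was -1.86 with 15d-PGJ2 and -0.85 with 15d-PGJ2-PC, beside -0.02 and -0.00 over all genes tested. An adjusted p under 0.05 together with a log2 fold change of -1 or lower was found for 7 members with 15d-PGJ2 (3.42% of genes tested) and for 3 with 15d-PGJ2-PC, Pydc4, Pydc3 and Mnda (0.946% of genes tested).

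**Figure D1:**
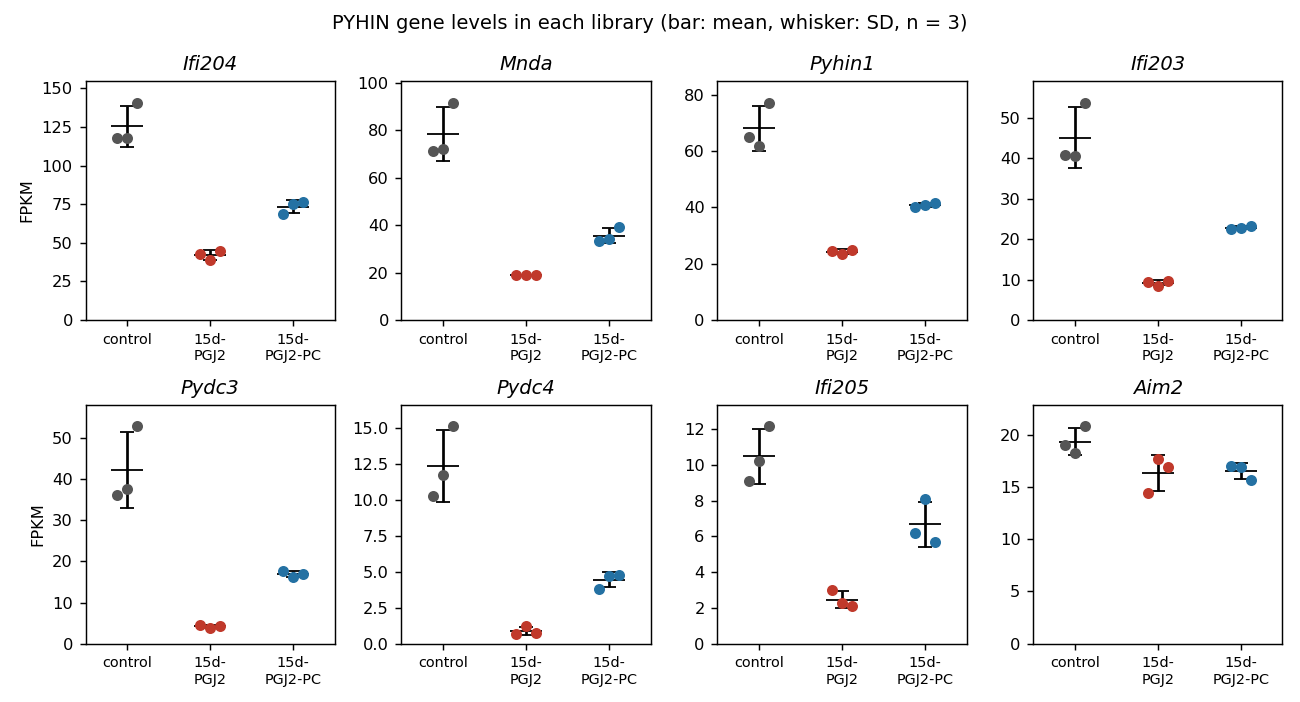
FPKM of each PYHIN member (vertical axis, from 0) in the 3 groups, with 1 point per library, the mean as a bar and the SD as whiskers. In 7 panels the 15d-PGJ2-PC libraries lie between the controls and the 15d-PGJ2 libraries without overlap, and in the Aim2 panel the libraries of both compounds overlap.

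All 3 libraries of each compound lay below all 3 controls for every one of the 8 members, Aim2 included. Over all genes tested this held for 28.8% with 15d-PGJ2 and 21.3% with 15d-PGJ2-PC. All 3 libraries with 15d-PGJ2-PC lay above all 3 with 15d-PGJ2 for 7 members, beside 20.5% of genes tested. Control replicate 3 was the highest control for all 8 members. Without it 7 members fell with 15d-PGJ2 and 7 with 15d-PGJ2-PC, and Aim2 was the member not called in both. In that fit 2574 and 1340 of the 11177 genes tested fell.

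Among the members, Ifi204 and Aim2 were named above for their link to DNA sensing. Ifi204 (chr1:173747293-173767069, minus strand), the gene of p204, was the most abundant member in every group. Its level was 118, 118 and 141 FPKM in controls, 42.9, 38.9 and 44.8 after 15d-PGJ2, and 68.5, 74.9 and 76.5 with 15d-PGJ2-PC. The 3 groups did not overlap. Ifi204 fell by 1.55 on the log2 scale with 15d-PGJ2 (SE 0.078, limma adjusted p = 6.15e-08) and by 0.76 with 15d-PGJ2-PC (SE 0.078, limma adjusted p = 3.97e-05).

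Aim2 (chr1:173349547-173466040, plus strand) moved least. It read 19.0, 18.2 and 20.8 FPKM in controls, 14.4, 17.7 and 16.9 after 15d-PGJ2, and 17.0, 16.9 and 15.7 with 15d-PGJ2-PC. Controls were the highest libraries, and the libraries of both compounds overlapped each other. Aim2 fell by 0.23 with 15d-PGJ2 on the log2 scale (SE 0.080, limma adjusted p = 0.0341). That call was lost without control replicate 1 (adjusted p = 0.0632), without control replicate 3 (adjusted p = 0.118) and without 15d-PGJ2 replicate 1, where the log2 fold change was -0.15 (adjusted p = 0.119). With 15d-PGJ2-PC the log2 fold change was -0.21 (95% interval -0.39 to -0.03, limma adjusted p = 0.0753), and it passed without 15d-PGJ2 replicate 1 (adjusted p = 0.0359) with the same fold change.

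Ifi205 encodes p205, a nuclear protein that takes part in control of the ASC gene Pycard. Ifi205 (chr1:174011998-174031755, minus strand) read 9.08, 10.2 and 12.1 FPKM in controls, 2.98, 2.30 and 2.09 after 15d-PGJ2, and 6.20, 8.10 and 5.70 with 15d-PGJ2-PC. The groups did not overlap, although the gap between controls and 15d-PGJ2-PC was smaller than 1 FPKM. The log2 fold change of Ifi205 was -1.73 with 15d-PGJ2 (SE 0.15, limma adjusted p = 3.12e-06) and -0.59 with 15d-PGJ2-PC (SE 0.15, limma adjusted p = 0.0121).

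Ifi203, Mnda and Pyhin1 encode further HIN-domain proteins of the family, Mnda being named after the human myeloid cell nuclear differentiation antigen and Pyhin1 after the family's pair of domains. Ifi203 (chr1:173920400-173942866, minus strand) read 40.8, 40.7 and 53.7 FPKM in controls, 9.48, 8.48 and 9.74 after 15d-PGJ2, and 22.5, 22.7 and 23.3 with 15d-PGJ2-PC. Mnda (chr1:173896339-173913087, minus strand) read 71.3, 72.2 and 91.5 FPKM in controls, 19.1, 18.9 and 18.9 after 15d-PGJ2, and 33.2, 34.3 and 39.3 with 15d-PGJ2-PC. Pyhin1 (chr1:173630859-173647928, plus strand) read 65.0, 61.9 and 77.1 FPKM in controls, 24.6, 23.4 and 24.8 after 15d-PGJ2, and 40.1, 41.0 and 41.7 with 15d-PGJ2-PC. In all 3 genes the groups were separate and the controls were highest. On the log2 scale Ifi203 fell by 2.16 with 15d-PGJ2 and by 0.94 with 15d-PGJ2-PC, Mnda fell by 1.98 and by 1.11, and Pyhin1 fell by 1.44 and by 0.71 (SE 0.072 to 0.099). The limma adjusted p of these 6 comparisons was at most 5.02e-05.

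Pydc3 and Pydc4, named for their pyrin domain, had the largest falls of the family on the log2(FPKM + 1) scale. Pydc3 (chr1:173673628-173698393, plus strand) read 36.1, 37.6 and 52.7 FPKM in controls, 4.47, 3.91 and 4.26 after 15d-PGJ2, and 17.6, 16.3 and 16.9 with 15d-PGJ2-PC. Its mean was 10-fold lower with 15d-PGJ2 and 2.49-fold lower with 15d-PGJ2-PC. Pydc3 fell by 3.03 on the log2 scale with 15d-PGJ2 (SE 0.12, limma adjusted p = 1.33e-08), the thirteenth lowest log2 fold change among the genes tested, and by 1.25 with 15d-PGJ2-PC (SE 0.12, limma adjusted p = 2.80e-05).

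Pydc4 (chr1:173566280-173599348, minus strand) was lower throughout, at 10.3, 11.7 and 15.1 FPKM in controls, 0.67, 1.21 and 0.78 after 15d-PGJ2, and 3.83, 4.74 and 4.76 with 15d-PGJ2-PC. The groups did not overlap, and the values with 15d-PGJ2 correspond to an estimated 10, 17 and 11 reads, the fewest of any member. The ratio of its mean levels was 14.0-fold for controls over 15d-PGJ2 and 2.78-fold for controls over 15d-PGJ2-PC. On the log2(FPKM + 1) scale, which understates changes near 1 FPKM, Pydc4 fell by 2.82 with 15d-PGJ2 (SE 0.15, limma adjusted p = 1.04e-07) and by 1.29 with 15d-PGJ2-PC (SE 0.15, limma adjusted p = 0.000114). With a pseudocount of 0.1 or 5 in place of 1 the 15d-PGJ2 value was -3.68 or -1.55, and with 5 it lay behind those of Ifi203 (-1.81) and Mnda (-1.79), and behind Mnda with 15d-PGJ2-PC as well.

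**Figure D2:**
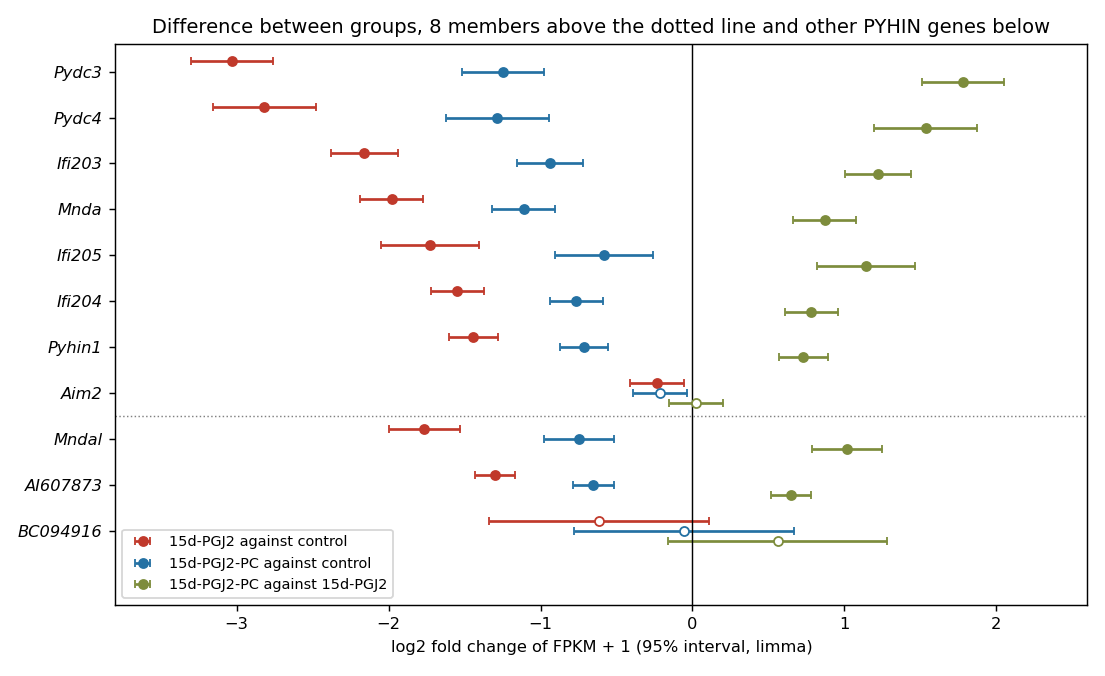
Log2 fold change of FPKM + 1 (horizontal axis) with its 95% interval for each PYHIN gene in 3 comparisons, each from a limma fit over 9 libraries; filled points have an adjusted p under 0.05. Pydc3 and Pydc4 lie farthest to the left with 15d-PGJ2 at -3.03 and -2.82, and Aim2 is the member nearest to 0 at -0.23.

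The compounds were compared with each other at the same dose and time, as 1 pair. Pydc3 was 4.01-fold higher with 15d-PGJ2-PC than with 15d-PGJ2 (log2 difference 1.78, 95% interval 1.51 to 2.05, limma adjusted p = 6.60e-06). For Pydc4 the log2 difference was 1.53 (1.19 to 1.87), for Ifi203 1.22 (1.00 to 1.44) and for Ifi205 1.15 (0.82 to 1.47). Smaller differences that also passed were 0.87 for Mnda (0.66 to 1.08), 0.78 for Ifi204 (0.61 to 0.96) and 0.73 for Pyhin1 (0.57 to 0.89). For Aim2 the log2 difference was 0.02 with a 95% interval of -0.16 to 0.20 (limma adjusted p = 0.889), so a difference between the compounds of about the size of the other members' lies outside that interval.

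Sequence shared between members limits how far their values stand alone. Of all 50-base stretches in the Mnda transcript 72.9% were also found in another gene, most often Ifi205. The share was 49.6% for Ifi205, 35.1% for Pyhin1, 30.2% for Ifi204, 25.9% for Pydc3, 20.1% for Pydc4, 7.76% for Ifi203 and 0.789% for Aim2. Pydc3 and Pydc4 shared most with each other (21.0% of the stretches of Pydc3 and 19.3% of those of Pydc4). How reads from such stretches were assigned is not given in the sources used here. The individual values of Mnda, Ifi205 and, to a lesser degree, Pyhin1, Ifi204, Pydc3 and Pydc4 are therefore uncertain. Ifi203, where little is shared, fell as described above. Pydc3 and Pydc4 added together fell by 3.17 with 15d-PGJ2 and by 1.29 with 15d-PGJ2-PC on the log2 scale (SE 0.11).

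The order of the members by level changed with their unequal falls. In controls Ifi204 was highest, followed by Mnda and Pyhin1, whose libraries overlapped, Ifi203 and Pydc3, which overlapped, then Aim2, and last Pydc4 and Ifi205, which overlapped. With 15d-PGJ2 no neighbours in the order overlapped, and it ran Ifi204, Pyhin1, Mnda, Aim2, Ifi203, Pydc3, Ifi205 and Pydc4. Aim2 moved from the sixth place in controls to the fourth. With 15d-PGJ2-PC Aim2 (mean 16.5 FPKM) was again in the sixth place and overlapped Pydc3 (mean 16.9 FPKM).

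The make-up of the summed family signal shifted accordingly. Aim2 took 4.85% ± 0.339 of the summed FPKM in controls (SD, n = 3), 13.8% ± 1.61 with 15d-PGJ2 and 7.63% ± 0.573 with 15d-PGJ2-PC. Pydc3 took 10.4% ± 0.829, 3.55% ± 0.189 and 7.79% ± 0.543 in the same order. Ifi204 took 31.4% ± 0.877, 35.6% ± 1.47 and 33.7% ± 0.826. For Aim2 and Pydc3 no library of 1 group overlapped another group, and the exact 2-sided permutation test gave p = 0.1 in each comparison, the smallest that 3 against 3 libraries allow (Benjamini-Hochberg adjusted over 8 members, 0.114 for each compound against control and 0.133 between compounds).

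**Figure D3:**
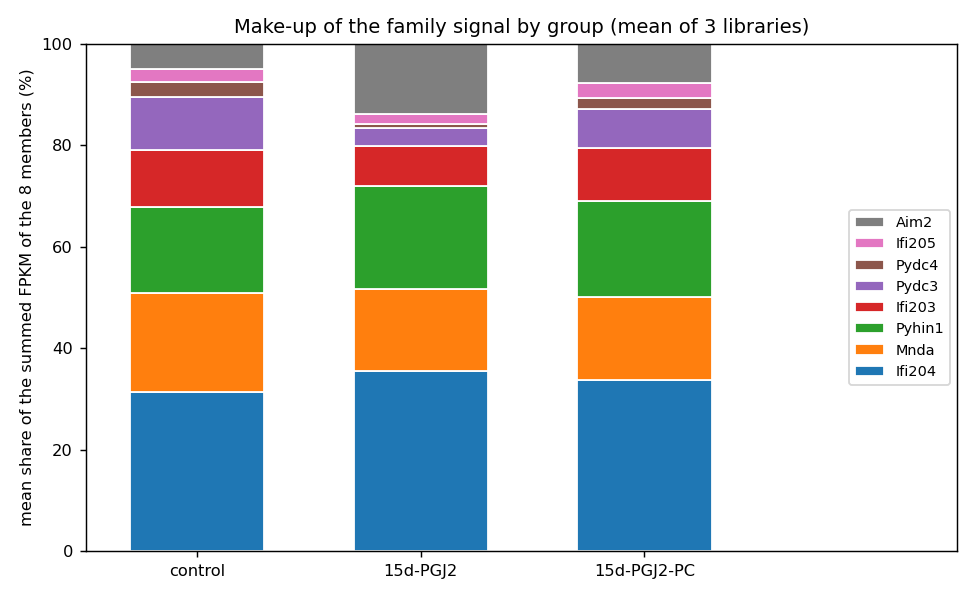
Mean share of each member in the summed FPKM of the 8 PYHIN genes (vertical axis, percent) for the 3 groups, each a mean of 3 libraries. The Aim2 segment at the top grows from 4.85% in controls to 13.8% after 15d-PGJ2, and the Pydc3 segment shrinks from 10.4% to 3.55%.

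Differences between members in their response to 15d-PGJ2 were examined as log2 ratios of FPKM + 1 within each library. Relative to Aim2, the other members dropped by between 1.21 (Pyhin1) and 2.80 (Pydc3). Each of these 7 ratios gave an exact permutation p = 0.1, adjusted to 0.112 over 28 pairs, so none could reach 0.05 in this design. The ratio of Pydc3 to Pydc4 differed between 15d-PGJ2 and control by -0.21 (exact permutation p = 0.2), and its sign turned with a pseudocount of 0.1 (0.41).

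**Figure D4:**
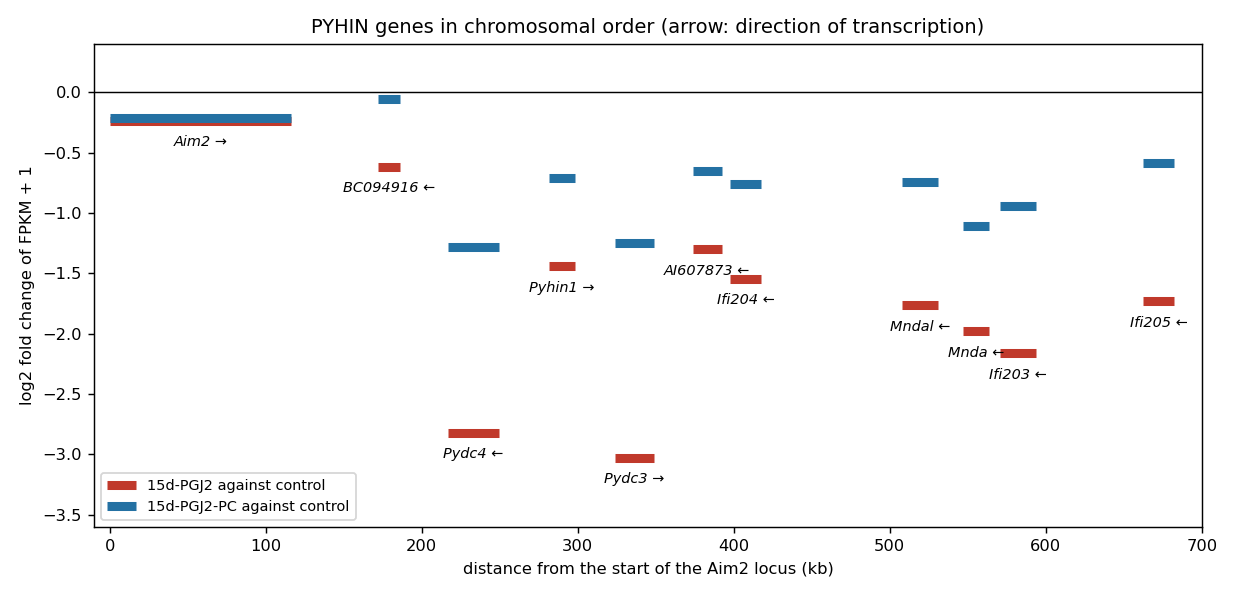
Log2 fold change of FPKM + 1 (vertical axis) of the PYHIN genes of chromosome 1 against the distance from the start of the Aim2 locus in kb; each bar spans the annotated gene and arrows give the direction of transcription. The 2 members with the lowest values, Pydc4 and Pydc3, lie either side of Pyhin1, which fell by 1.44.

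Neighbours in the cluster differed in the size of their response. Pyhin1 lies between Pydc4 and Pydc3 and fell by 1.44 with 15d-PGJ2, while Pydc4 fell by 2.82, Pydc3 fell by 3.03 and Aim2, at one end, fell by 0.23. Within 500 kb of the cluster RefSeq lists 27 other protein-coding genes, of which 5 were in the table and 0 were expressed enough to be tested. The cluster therefore has no tested neighbour to compare with.

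The table holds 4 further PYHIN genes. AI607873 was the highest of all PYHIN genes in every group at 145.5 ± 13.6, 58.3 ± 2.33 and 91.9 ± 0.989 FPKM in controls, 15d-PGJ2 and 15d-PGJ2-PC. Its log2 fold change was -1.30 with 15d-PGJ2 and -0.65 with 15d-PGJ2-PC (SE 0.060, limma adjusted p = 3.50e-08 and 1.86e-05). Mndal read 70.3, 67.5 and 88.3 FPKM in controls, 20.6, 21.6 and 21.8 after 15d-PGJ2, and 39.5, 50.4 and 43.5 with 15d-PGJ2-PC, again without overlap. BC094916 was near 1 FPKM (0.34, 1.38 and 2.02 in controls, 1.09, 0 and 0.28 after 15d-PGJ2, and 0.75, 1.31 and 1.12 with 15d-PGJ2-PC), its groups overlapped, and it passed in no comparison (limma adjusted p = 0.147, 0.926 and 0.267 for 15d-PGJ2, 15d-PGJ2-PC and the difference between them). Ifi202b was listed at 0 in 8 libraries and at 0.10 in control replicate 3.

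Genes that act with the family were grouped into lists by function. Of 12 genes of the AIM2 inflammasome and pyroptosis, 8 fell and 2 rose with 15d-PGJ2 (median log2 fold change -0.54), and 5 fell and 1 rose with 15d-PGJ2-PC (median -0.23). Among all genes tested 25.0% fell and 22.2% rose with 15d-PGJ2, and 14.1% fell and 13.8% rose with 15d-PGJ2-PC. Pycard, the adaptor that AIM2 binds, fell from 51.2 ± 2.42 FPKM to 21.9 ± 0.454 and 31.6 ± 2.79 (limma adjusted p = 9.83e-08 and 2.14e-05). Gsdmd, the pore-forming substrate of caspase-1, fell from 52.3 ± 1.80 to 27.1 ± 0.779 and 39.8 ± 1.26. Il1b, which encodes the cytokine released through that pore, fell from 15.8 ± 1.16 to 9.93 ± 2.18 and 9.79 ± 0.890. Casp1, the inflammasome protease, moved the other way, from 76.8 ± 5.44 to 92.3 ± 1.32 and 91.8 ± 5.41 (limma adjusted p = 0.00302 and 0.00684).

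Of 11 genes of cytosolic DNA sensing, 8 fell and 1 rose with 15d-PGJ2 (median -0.48), and 5 fell and 1 rose with 15d-PGJ2-PC (median -0.20). The shares of all genes tested were, in the same order, 25.0% and 22.2% with 15d-PGJ2, and 14.1% and 13.8% with 15d-PGJ2-PC. Trex1, the exonuclease that clears cytosolic DNA, fell from 114 ± 5.76 FPKM to 34.3 ± 0.510 with 15d-PGJ2 and 62.9 ± 3.15 with 15d-PGJ2-PC. Cgas, the enzyme that makes the second messenger for STING, fell from 4.01 ± 0.606 to 2.59 ± 0.446 with 15d-PGJ2 (limma adjusted p = 0.0139, and 0.0547 without control replicate 3) and stood at 3.34 ± 0.490 with 15d-PGJ2-PC (limma adjusted p = 0.308). Sting1, the adaptor itself, fell from 14.7 ± 0.946 to 9.04 ± 0.858 with 15d-PGJ2. With 15d-PGJ2-PC Sting1 read 11.3 ± 2.08 (limma adjusted p = 0.0390), a call lost when any of 4 libraries was left out: control replicate 1 (0.116), control replicate 2 (0.0960), 15d-PGJ2-PC replicate 1 (0.110) or 15d-PGJ2-PC replicate 3 (0.137). Tbk1, the kinase downstream of STING, rose from 38.9 ± 2.35 to 47.0 ± 1.26 and 45.7 ± 1.09 (limma adjusted p = 0.00130 and 0.00681).

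Interferon signalling genes fell with both compounds, 13 of 15 each time (median -0.66 with 15d-PGJ2 and -0.36 with 15d-PGJ2-PC). Of all genes tested 25.0% fell with 15d-PGJ2 and 14.1% with 15d-PGJ2-PC. Stat2, a factor that carries the signal to interferon-stimulated response elements, fell from 87.0 ± 8.82 FPKM to 16.4 ± 0.465 and 39.9 ± 2.79. Irf9, its DNA-binding partner, fell from 54.0 ± 0.970 to 26.3 ± 0.406 and 40.5 ± 1.56, and the receptor chain Ifnar1 from 26.3 ± 1.86 to 18.9 ± 0.229 and 20.9 ± 0.848.

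All 20 interferon-induced comparison genes outside the family fell with both compounds, with a median log2 fold change of -2.25 for 15d-PGJ2 and -0.98 for 15d-PGJ2-PC. Of all genes tested 25.0% and 14.1% fell. Ifit3, an antiviral gene, fell from 341 ± 48.4 FPKM to 19.5 ± 1.00 and 99.4 ± 8.55, and Oas1a, which senses double-stranded RNA, from 119 ± 4.12 to 51.2 ± 0.667 and 85.7 ± 4.15. The PYHIN medians of -1.86 and -0.85 stand beside these values. Between the compounds, 19 of these 20 genes and 11 of the 15 signalling genes were higher with 15d-PGJ2-PC. So were 4 of the 11 DNA-sensing genes and 4 of the 12 inflammasome genes, and 1 of those 12 was lower. Among all genes tested 12.3% were higher and 8.30% lower.

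**Figure D5:**
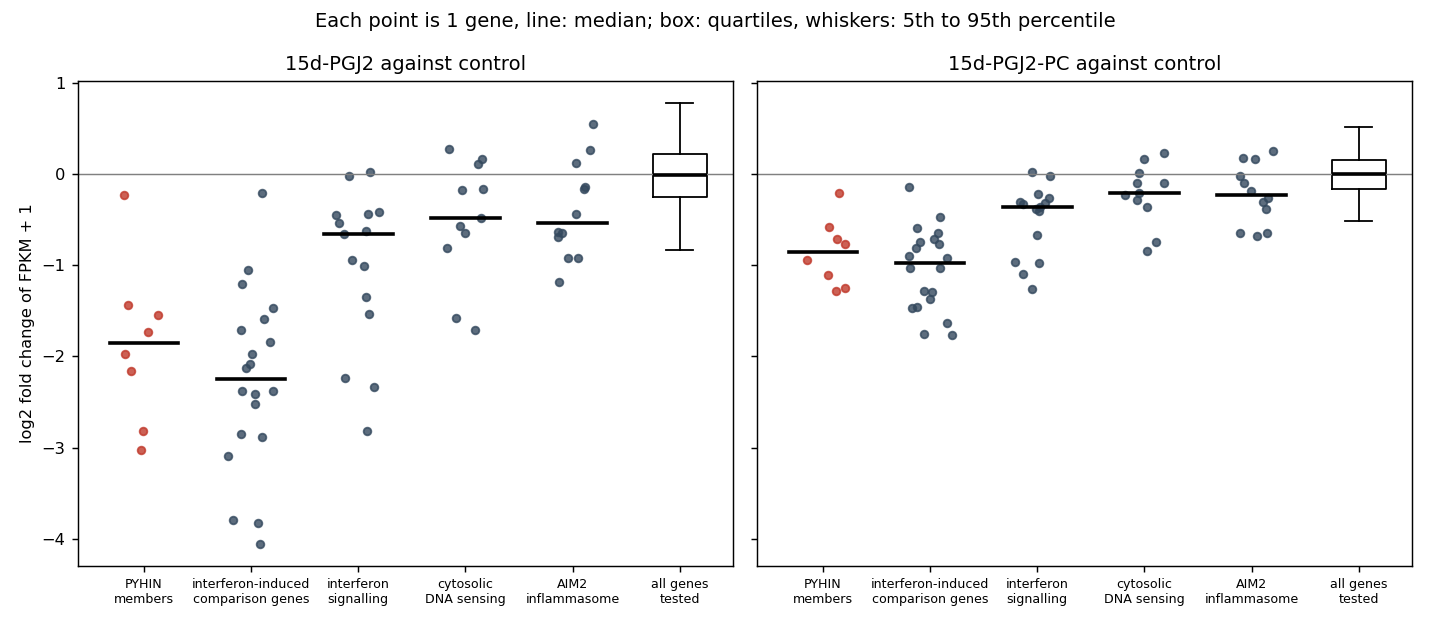
Log2 fold change of FPKM + 1 (vertical axis) against control for 15d-PGJ2 (left) and 15d-PGJ2-PC (right); each point is 1 gene of the list named on the horizontal axis, the black line is the list's median, and the box on the right shows all 11309 genes tested (quartiles, whiskers at the 5th and 95th percentiles). The PYHIN median lies at -1.86 on the left and -0.85 on the right, and the isolated PYHIN point at the top left is Aim2 at -0.23.

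A family mean was taken over the log2(FPKM + 1) of the 8 members, each first centred and divided by its SD over the 9 libraries. The genes that ran most like this mean were, by Pearson's r among all genes tested outside the 8, Ifih1 (0.999), Gbp3 (0.999), Ptbp3 (0.998), AI607873 (0.998) and Mx1 (0.998). These values describe 9 libraries in 3 groups and mostly restate the group means. Among the members themselves r with that mean was 0.962 to 0.996 for 7 and 0.764 for Aim2. Each member is part of the mean it is compared with, so these r are raised in part by construction. Ifih1, an RNA sensor, read 34.3 ± 4.64, 11.7 ± 0.351 and 20.0 ± 0.505 FPKM in controls, 15d-PGJ2 and 15d-PGJ2-PC. Ptbp3, a splicing regulator, ran in parallel over a much narrower range, from 53.9 ± 1.90 to 38.7 ± 0.474 and 46.3 ± 0.244.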

How the data were processed

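RNA from 9 libraries of mouse macrophages (3 groups of 3) was extracted with Trizol and made into TruSeq libraries, per the labels' protocols. The authors deposited 1 table of FPKM values for 18049 genes, used here as deposited. BWA and build mm10 come from the submitters' processing notes; the tool that counted reads (which decides how shared reads are handled) is not given in the sources used here. The 11309 genes that reached 1 FPKM in 3 or more of the 9 libraries were tested on log2(FPKM + 1) with limma 3.58.1 in R 4.3.3 (moderated test with an intensity trend, 2-sided, 9 libraries, no covariate), with Benjamini-Hochberg adjustment per comparison, called under 0.05; adjusted p-values of genes come from limma. Shares and ratios used exact permutation tests (scipy 1.17.1). The fit was tested on simulated data. Promoters and positions are RefSeq's for GRCm38.p6; transcript overlaps used GENCODE sequences of the same build. The genes named were the members, other PYHIN genes, members of the fixed functional lists and the 5 genes most like the family mean; within the lists, examples were picked after their values were seen, and some genes are not reported here. The members and lists were chosen with earlier results of these data known. Alternatives were other pseudocounts, filters, scalings and fits, and leaving out each library in turn.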

Additional observations from a re-analysis of the deposited data

How the results depend on the processing

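The 21 fold changes of the 7 members other than Aim2 kept their direction and their side of the threshold under all 18 alternatives (378 fits, highest adjusted p 0.0490, for Ifi205 with 15d-PGJ2-PC). Aim2 with 15d-PGJ2 was lost without a filter on low values (adjusted p = 0.0560) and with the 6 libraries of the comparison alone (0.0551), and with 15d-PGJ2-PC it passed in those 6 libraries (0.0499); the cause was not tested. Sting1 with 15d-PGJ2-PC was also lost without a filter (0.0785), without the trend (0.0587) and with the 6 libraries alone (0.0544). The difference of Aim2 between the compounds turned sign under quantile normalization (-0.0038) and without 15d-PGJ2 replicate 1 (-0.060; range -0.060 to 0.077 over fits that left out 1 library). The fold change of BC094916 with 15d-PGJ2-PC turned sign with a pseudocount of 0.1 (0.028) and in 3 fits that left out 1 library (range -0.39 to 0.20; 0.025 without control replicate 2, 0.20 without control replicate 3, 0.057 without 15d-PGJ2-PC replicate 1), and BC094916 passed with 15d-PGJ2 without control replicate 1 (adjusted p = 0.0275) or 15d-PGJ2 replicate 1 (0.0408). The difference in the share of Mnda between the compounds was -0.24 percentage points without 15d-PGJ2-PC replicate 3, against 0.35 with all libraries (range -0.24 to 0.70 over fits that left out 1 library). With a pseudocount of 0.1 the change in the ratio of Pydc3 to Pydc4 turned sign in 15d-PGJ2 against control (0.41) and in 15d-PGJ2-PC against 15d-PGJ2 (-0.25). The number of inflammasome genes called between the compounds was 5 and ranged from 3 to 5 when 1 library was left out, at 3 without 15d-PGJ2 replicate 1, 15d-PGJ2 replicate 2 or 15d-PGJ2-PC replicate 2. With the longer motif, which adds CT after the second GAAA, the number of members with a promoter match was 0 in place of 5. Same-numbered libraries did not deviate together (correlations -0.043 to 0.052), so the replicate numbers were not taken as pairs. With the number as a replicate block 8, 7 and 7 members were called in the 3 comparisons, as without it. In that fit 2803 of 11309 genes fell with 15d-PGJ2 and 1542 with 15d-PGJ2-PC, and 1328 were higher with 15d-PGJ2-PC than with 15d-PGJ2. Depth limits Pydc4 and BC094916, at an estimated 0 to 31 reads for BC094916.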
